A study of Homo sapiens with 9 samples.

Results

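Cells labelled as p65 knockout were given either an empty vector or a form of p65 named 2CS, were treated with TNF, and were compared by RNA sequencing. The comparison took 6 of the 9 libraries of the study, the 3 labelled p65 2CS (numbered 7 to 9) and the 3 labelled vector (numbered 1 to 3), and covered the 18195 of 58735 annotated genes that had enough reads. The remaining 3 libraries, numbered 4 to 6, came from the same cells given p65 WT and are set beside it. All 9 libraries came from HEK293A, an adherent line derived from human embryonic kidney, carrying a p65 knockout, and all 9 were treated with TNF at 20 ng/mL for 2 h, beginning 24 h after plasmid transfection. The response to TNF itself was therefore not compared, and every difference is one between plasmids in TNF-treated knockout cells. What 2CS stands for, whether the knockout line is 1 clone and whether a group's libraries are separate cultures is not given in the labels, and the p-values may therefore measure no more than the spread of repeated preparations. Transfection reaches only some of the cells in a dish, so that fewer responding cells and less RNA per responding cell cannot be told apart in these bulk libraries.

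p65, the product of RELA, is the main activating subunit of NF-kB, a dimeric transcription factor that binds short DNA elements called kB sites. In resting cells NF-kB is held in the cytoplasm by IkB proteins, and TNF, acting through its receptor and the IKK kinases, leads to IkB degradation and to entry of NF-kB into the nucleus. Its targets include its own inhibitors, which end the response, and chemokines, cytokines, adhesion molecules and survival factors. The title of the series places the 2CS form in a study of p65 palmitoylation, the attachment of a fatty acid to cysteine residues of a protein. The comparison with vector asks what activity the 2CS form has of its own.

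RELA (ENSG00000173039, chr11:65653596-65663094, minus strand of GRCh38) was read at 68, 68.9 and 65.8 CPM, the count scaled to a common library size, in vector replicates 1, 2 and 3 and at 25706, 26728 and 23997 CPM in p65 2CS replicates 7, 8 and 9. The log2 fold was 8.56 ± 0.054 (standard error), a 377-fold rise (adjusted p = 1.15e-52). In p65 WT replicates 4, 5 and 6 RELA stood at 9034, 8024 and 9906 CPM, so that the p65 2CS cells held more RELA transcript than the p65 WT cells (log2 fold 1.50 ± 0.037, adjusted p = 1.40e-30). Plasmid and chromosomal RELA transcripts share 1 count, and the source of the RELA reads left with vector was not tested. Below, values of 3 libraries are CPM in the order of the replicate numbers, and a gene is said to rise or fall where its adjusted p (edgeR quasi-likelihood test, Benjamini-Hochberg over all genes tested) was under 0.05.

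The DNA upstream of some of the genes described below is shown first, because it holds, or does not hold, the element that NF-kB is known to bind. Each line gives the 250 bases before the transcription start from RefSeq (GRCh38.p14), 5′ to 3′ on the gene's strand, with matches to the kB consensus on either strand in capitals. CCL20 (chr2:227813592-227813841, plus strand), the chemokine with the largest rise, has 1 match, GGAAAACCCC, 79 bases before the start. SELE (chr1:169734080-169734329, minus strand), E-selectin, has 1 match, GGGGATTTCC, 94 bases before it. TNFAIP3 (chr6:137867009-137867258, plus strand), the inhibitor A20, has 2 matches, GGAAAGTCCC at 67 and GGAAATCCCC at 55 bases. TNFRSF9 (chr1:7940840-7941089, minus strand), the receptor 4-1BB, has 2 overlapping matches, GGGAATTTCC at 74 and GGAATTTCCC at 73 bases. SLC12A7 (chr5:1112064-1112313, minus strand), a potassium-chloride cotransporter whose libraries overlapped between the p65 forms, has none in this window.
CCL20: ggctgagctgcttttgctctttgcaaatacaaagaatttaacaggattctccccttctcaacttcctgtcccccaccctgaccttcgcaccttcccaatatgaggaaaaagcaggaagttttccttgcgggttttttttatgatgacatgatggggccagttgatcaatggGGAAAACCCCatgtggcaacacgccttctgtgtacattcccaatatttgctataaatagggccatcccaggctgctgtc
SELE: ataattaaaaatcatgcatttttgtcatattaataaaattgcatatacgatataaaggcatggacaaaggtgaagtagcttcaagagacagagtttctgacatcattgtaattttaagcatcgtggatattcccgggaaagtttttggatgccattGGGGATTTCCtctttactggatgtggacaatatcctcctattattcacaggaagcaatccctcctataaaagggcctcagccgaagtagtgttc
TNFAIP3: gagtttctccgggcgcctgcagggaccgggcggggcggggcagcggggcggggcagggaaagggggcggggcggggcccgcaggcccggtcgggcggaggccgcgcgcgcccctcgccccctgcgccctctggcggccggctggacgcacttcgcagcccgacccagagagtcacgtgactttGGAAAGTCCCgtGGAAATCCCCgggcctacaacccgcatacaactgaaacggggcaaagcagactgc
TNFRSF9: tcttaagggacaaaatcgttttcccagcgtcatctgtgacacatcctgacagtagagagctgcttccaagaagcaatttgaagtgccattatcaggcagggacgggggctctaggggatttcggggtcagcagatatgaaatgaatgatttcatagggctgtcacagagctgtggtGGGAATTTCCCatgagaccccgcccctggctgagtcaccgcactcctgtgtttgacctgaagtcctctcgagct
SLC12A7: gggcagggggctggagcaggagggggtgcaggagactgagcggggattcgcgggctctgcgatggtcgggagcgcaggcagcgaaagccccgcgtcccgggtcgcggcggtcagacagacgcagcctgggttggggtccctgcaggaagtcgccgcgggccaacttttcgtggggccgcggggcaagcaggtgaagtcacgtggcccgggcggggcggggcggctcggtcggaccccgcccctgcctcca

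The consensus was found upstream of 1828 of 35114 RefSeq promoters (5.21%). Among the other named genes, NFKBIA, VCAM1, CXCL10, CXCL1, CXCL6, IL32, IRF1 and further genes not listed here, which rose, held a match to the consensus in this window. So did NFKBIZ, which was not called (0.039 ± 0.081), and RRM2, which had 2 matches and fell (-0.29 ± 0.037). The raised genes ICAM1, CXCL8, TNF, NFKB2, STAT5A and further genes not listed here did not, which says only that these letters are not in these 250 bases. The genes given with and without a match are examples, and no ratio can be read from them. Only 194 of the 387 genes raised at least 2-fold with p65 2CS (50.1%) could be matched to a promoter, under the 80% needed, so that the share of raised genes with a match is not given.

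With p65 2CS in place of vector, 2193 of 18195 genes were higher (12.1%) and 2070 were lower (11.4%). Most of these differences were small, with a median log2 fold of -0.002 over all genes tested and quartiles of -0.13 and 0.145. A rise of at least 2-fold was found for 388 genes (2.13%), RELA among them, and a fall of at least 2-fold for 41 (0.225%), and at least 4-fold for 176 and 3 genes. The large changes were thus mostly rises, and they lay among genes with few reads with vector. Of the 387 raised genes other than RELA, 274 were protein-coding, and their median level was 0.369 CPM with vector and 1.35 CPM with p65 2CS. By level with vector, 39 of the 112 tested genes without a read, 253 of 2653 with reads but under 1 CPM, 78 of 4926 at 1 to 10 CPM and 18 of 10504 above 10 CPM rose at least 2-fold. The edgeR filter keeps a gene that has enough reads in 1 group, so that a gene with no or few reads with vector was tested through the p65 libraries. Rises among genes under 1 CPM with vector, also within the lists below, thus rest on genes selected in part by their rise. The genes above 10 CPM with vector that rose at least 2-fold, RELA aside, were PGK1, SLC12A7, GADD45B, NFKB2, NFKBIA, MSX1, JUNB, RELB, C1QTNF1, CD83, BMP2, CSF1, USP43, TNS1, IRF1, NOCT and SLFN5. Over the same 387 genes the median log2 fold was 1.84 with p65 2CS and 2.86 with p65 WT, both against the same vector libraries, and the median level with p65 WT was 3.2 CPM. Compared directly, 2431 genes were higher (13.4%) and 3254 lower (17.9%) with p65 2CS than with p65 WT. That split depends on the scaling, since with library totals alone 3115 were higher and 2815 lower.

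Library totals lay between 17923114 and 20162267 counts with vector and between 17146134 and 25068515 with p65 2CS. The summed level of the 10 nephron epithelium markers was 28.9 to 30.6 CPM with vector and 28.0 to 28.7 with p65 2CS, and that of the 8 neural markers 980 to 1020 and 899 to 931, with STMN2 at 0 in both. Neuronal and nephron genes are known to be expressed by HEK293 cells. The 8 leukocyte markers summed to 4.53 to 4.80 and 5.87 to 6.05 CPM, with TYROBP at 0 in both groups and PTPRC and CD3E at 0 with vector, and the 8 markers of fibroblasts and endothelium to 79.8 to 87.8 and 80.6 to 84.2, with DCN at 0 in both. Over the 4 marker lists, 22 markers were tested, of which 4 rose, CDH5 of endothelium by the most, and 4 fell, and their part in the results was not tested.

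The other NF-kB subunit genes, known as NF-kB targets themselves, all rose (4 of 4, against 12.1% of all genes). RELB, the activating subunit of the noncanonical pathway, was read at 14.1, 18.6 and 17.5 CPM with vector and 70.9, 69.2 and 77.3 with p65 2CS (log2 fold 2.11 ± 0.067, adjusted p = 2.24e-26). NFKB2, which encodes its p52 partner as a larger precursor, went from 49.1, 50.1 and 48.7 to 117, 112 and 110.4 CPM (1.20 ± 0.043, adjusted p = 2.31e-24). NFKB1, the source of p50, went from 57.3, 54.5 and 56.7 to 104, 107 and 102 CPM (0.90 ± 0.042, adjusted p = 1.92e-20). In each of these genes every p65 2CS library lay above every vector library and below every p65 WT library. REL (c-Rel) rose from 16, 18.5 and 17.3 to 25.1, 27.9 and 25.6 CPM (0.60 ± 0.075, adjusted p = 5.56e-08), and its p65 WT libraries at 25.2, 24.7 and 24.8 overlapped those of p65 2CS (p65 2CS against p65 WT 0.077 ± 0.073, adjusted p = 0.469).

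Of the 14 tested feedback inhibitors, 10 rose (71.4%, against 12.1% over all genes) and none fell (against 11.4%). The median log2 fold was 0.38, against -0.002 over all genes. TNFAIP3, which encodes the ubiquitin-editing enzyme A20 that shuts off signalling from the TNF receptor, led with 7.35, 7.52 and 6.02 CPM with vector and 49.9, 51.1 and 44.7 with p65 2CS (2.80 ± 0.073, adjusted p = 1.95e-29). NFKBIA, which encodes IkB alpha, the inhibitor that captures NF-kB and returns it to the cytoplasm, rose from 36.2, 36.8 and 35.9 to 104, 115 and 112 CPM (1.61 ± 0.043, adjusted p = 6.14e-29). The libraries of both genes did not overlap between groups. BCL3, a nuclear IkB protein, went from 5.38, 5.81 and 4.91 to 9.06, 11.3 and 10.2 CPM (0.93 ± 0.12), and NFKBIE, IkB epsilon, from 8.68, 8.99 and 9.22 to 14.3, 15.1 and 14.6 (0.71 ± 0.095). NFKBIB, IkB beta, rose from 45.6, 45.3 and 39.8 to 73.9, 67.5 and 68.4 CPM (0.68 ± 0.054), and the p65 WT libraries lay in the same range at 70.4, 67.4 and 74 (p65 2CS against p65 WT -0.017 ± 0.052, adjusted p = 0.844). NFKBIB overlaps SIRT2 on the opposite strand, and without a known strand setting their reads cannot be told apart, while SIRT2 itself had a log2 fold of 0.013. TNIP1, which helps A20 bind its substrates, the deubiquitinase CYLD and the adaptor TRAF3 rose less, with log2 folds of 0.44 ± 0.043, 0.33 ± 0.053 and 0.33 ± 0.045. NFKBID and ZC3H12A, the RNase Regnase-1, also passed with log2 folds of 0.33 ± 0.11 and 0.42 ± 0.12, but both calls were lost without vector replicate 2 (0.28 and 0.32), the first also without p65 2CS replicate 8 and the second without vector replicate 1. Against p65 WT, 10 of the 14 were lower with p65 2CS and none higher, where 17.9% of all genes were lower and 13.4% higher.

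**Figure D1:**
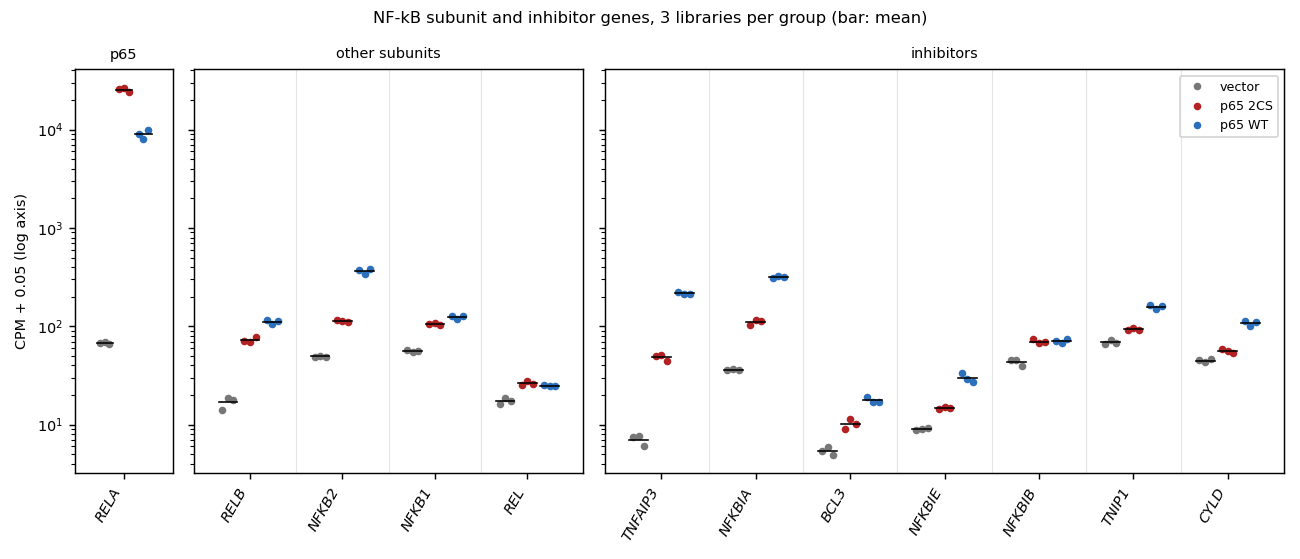
CPM plus 0.05 on a log axis of RELA, the other NF-kB subunits and 7 inhibitor genes, with a dot for each of the 3 libraries per group and a bar at their mean. RELA is highest in the p65 2CS libraries, whereas TNFAIP3, NFKBIA, RELB and NFKB2 lie between vector and p65 WT, and NFKBIB and REL reach the p65 WT range.

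Chemokines, the secreted proteins that draw leukocytes to a site of inflammation, rose in 10 of the 12 that could be tested, out of 17. None fell, where 12.1% of all genes rose and 11.4% fell. The 12 include CCL20, CXCL10 and CXCL5, without a read with vector, CCL5, with 1, and CXCL8, CXCL1 and CXCL6, with few. These genes had too few vector reads for the filter and were tested through the p65 libraries. The 12 were thus selected in part by their rise. CCL20 (chr2:227805739-227817564), the ligand of CCR6, had no read in any vector library and, with p65 2CS, 16.1, 19.2 and 16.3 CPM, at least 333-fold more (adjusted p = 2.68e-27), where the bound takes 3 counts over the 3 vector libraries as the floor. With p65 WT it stood at 150.4, 152 and 151 CPM (p65 2CS against p65 WT -3.12 ± 0.058, adjusted p = 1.08e-33). CXCL8, interleukin 8, which attracts neutrophils, went from 0, 0.0977 and 0.166 to 5.05, 5.32 and 6.73 CPM (5.92 ± 0.33, adjusted p = 7.78e-18). CXCL1, another neutrophil chemokine, went from 0.213, 0 and 0 to 2.96, 3.57 and 3.47 CPM (5.46 ± 0.40, adjusted p = 3.56e-14). All p65 2CS libraries of both lay above all vector libraries. The few vector reads set these folds, since all 4 reads of CXCL1 came from vector replicate 1, without which its log2 fold was 8.96 (4.87 without vector replicate 2), and that of CXCL8 was 6.63 without vector replicate 3. CXCL10, a T cell chemokine also induced by interferon, had no read with vector and, with p65 2CS, 1.39, 1.9 and 1.37 CPM, at least 30.5-fold more. CXCL6 differed from the others in that its p65 2CS libraries at 3.25, 2.34 and 1.84 CPM, against 0.213, 0.44 and 0.221 with vector, overlapped those of p65 WT at 3.97, 2.72 and 3.02 (p65 2CS against p65 WT -0.40 ± 0.24, adjusted p = 0.231). Of the 12, 9 were lower with p65 2CS than with p65 WT and none was higher (17.9% and 13.4% of all genes).

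Among 18 tested cytokines and growth factors, out of 28 in the list, 8 rose and none fell, with a median log2 fold of 0.81. The share that rose was 44.4%, where 12.1% of all genes rose and 11.4% fell. TNF, LTB and EBI3 had too few vector reads for the filter and were tested through the p65 libraries. The 18 were thus selected in part by their rise. IL32, a cytokine that itself induces TNF, was read at 4.42, 3.23 and 3.75 CPM with vector and 27.9, 26 and 26.9 with p65 2CS (2.82 ± 0.093, adjusted p = 9.43e-26). TNF had 1 read over the vector libraries and 2.5, 2.26 and 2.16 CPM with p65 2CS, a ratio of 132 with a 95% counting interval (Clopper-Pearson) of 23.3 to 5240 (adjusted p = 1.28e-13). TNF is also the ligand that all cells, vector included, had received as protein. LTB, which encodes lymphotoxin beta, went from 0.266, 0.0489 and 0 to 0.93, 0.992 and 2.05 CPM (3.57 ± 0.56, or 5.34 without vector replicate 1), and p65 WT at 2.08, 1.83 and 1.54 CPM overlapped it. EBI3, the shared subunit of several heterodimeric cytokines, reached only 0.581, 1.59 and 1.0 CPM from 0.107, 0.0977 and 0.276 with vector (2.77 ± 0.43, or 3.37 without vector replicate 3), against 28.2, 25.3 and 27.7 with p65 WT. BMP2, a growth factor of the TGF-beta family, was the exception in the other direction, with 28.7, 25.9 and 29.4 CPM with vector, 60.9, 60 and 57.1 with p65 2CS and 50.9, 50.9 and 50.7 with p65 WT (p65 2CS against vector 1.09 ± 0.057, adjusted p = 1.45e-18, and against p65 WT 0.22 ± 0.054, adjusted p = 0.0012). It was the only 1 of the 18 that was higher with p65 2CS than with p65 WT, and 10 were lower (13.4% and 17.9% of all genes).

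The adhesion list was split, with 5 rises and 3 falls among 11 tested genes, out of 15, and a median log2 fold of 0.041. These are shares of 45.5% and 27.3%, against 12.1% and 11.4% over all genes. SELE, ICAM1 and VCAM1 had no or few vector reads and were tested through the p65 libraries. The 11 were thus selected in part by their rise. The rises included the 3 molecules that let leukocytes roll and hold on activated endothelium. SELE, E-selectin, was read at 0, 0.195 and 0 CPM with vector, where all its reads came from replicate 2, and at 22.9, 26.5 and 23.2 with p65 2CS (8.32 ± 0.22, adjusted p = 1.95e-29, or 11.80 without that replicate). ICAM1 went from 0.266, 0.195 and 0.276 to 14.2, 14.1 and 12.7 CPM (5.77 ± 0.19, adjusted p = 1.50e-25). VCAM1 had no read with vector and, with p65 2CS, 2.44, 3.25 and 3.05 CPM, at least 56.7-fold more (adjusted p = 2.21e-15). All 3 stayed far below p65 WT, where SELE stood at 412, 388 and 413 CPM, ICAM1 at 407, 378 and 426 and VCAM1 at 20.5, 22.9 and 21.9, with log2 folds of p65 2CS against p65 WT of -4.05 ± 0.048, -4.88 ± 0.050 and -2.88 ± 0.14 (adjusted p up to 4.42e-20). SELE overlaps C1orf112 on the opposite strand, which had means of 24.6 CPM with vector and 29.3 CPM with p65 2CS. The integrin subunit ITGA5 rose by 0.32 ± 0.056, and CD58, a ligand of the T cell protein CD2, by 0.48 ± 0.14, a call that was lost without vector replicate 3 (0.37). Each of the 3 falls was smaller than any of these rises. Of the 11, 10 were lower with p65 2CS than with p65 WT, against 17.9% of all genes.

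Of 22 receptors and ligands of the immune system 19 were tested. Of these 7 rose (36.8%, against 12.1% over all genes) and none fell (against 11.4%), with a median log2 fold of 0.25. CD40 had too few vector reads for the filter and was tested through the p65 libraries. The 19 were thus selected in part by their rise. CD40, the receptor by which T cells activate antigen-presenting cells, went from 0.693, 0.293 and 0.607 to 6.27, 6.43 and 5.37 CPM (3.52 ± 0.22, adjusted p = 2.01e-16), and reached 199, 174 and 202 with p65 WT (-4.99 ± 0.072, p65 2CS against p65 WT). TNFRSF9, the costimulatory receptor 4-1BB, was read at 3.09, 2.05 and 2.1 CPM with vector, 15.3, 15.8 and 13.3 with p65 2CS (2.62 ± 0.14, adjusted p = 1.77e-18) and 18.3, 15.5 and 16 with p65 WT. Between the p65 forms its log2 fold was -0.16 ± 0.11 (adjusted p = 0.256), so that no difference was detected, and its libraries overlapped. CD83, an activation marker of dendritic cells, went from 19.7, 17.1 and 17.3 to 42.6, 42 and 41.1 CPM (1.22 ± 0.061), IL18R1, a subunit of the interleukin 18 receptor, from 6.87, 7.52 and 8.66 to 16.4, 17.5 and 16.7 (1.14 ± 0.092), and CD70, the ligand of CD27, from 4.16, 3.57 and 3.42 to 7.96, 7.98 and 7.79 (1.09 ± 0.12). In all 5 of these genes the p65 2CS libraries lay above the vector libraries.

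**Figure D2:**
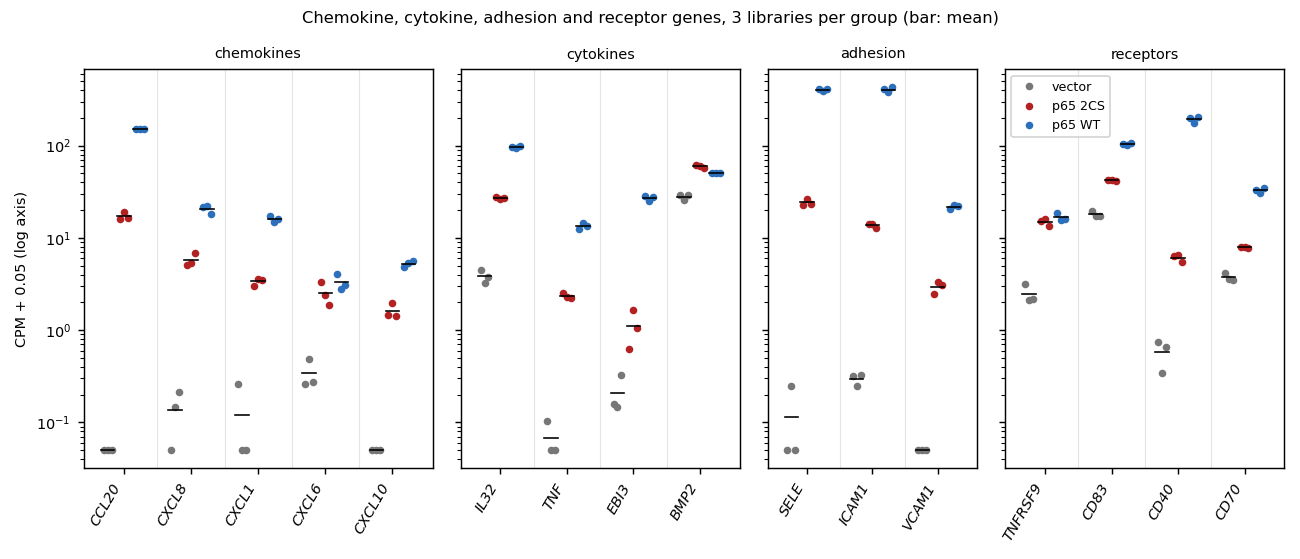
CPM plus 0.05 on a log axis of 16 chemokine, cytokine, adhesion and receptor genes, with a dot for each of the 3 libraries per group and a bar at their mean. The p65 2CS libraries lie above the vector libraries in every gene drawn and below the p65 WT libraries in most, with CXCL6 and TNFRSF9 in the p65 WT range and BMP2 above it.

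Survival genes were divided as well, with 8 rises and 4 falls among 18 tested (44.4% and 22.2%, against 12.1% and 11.4% over all genes). GADD45B, a stress protein that restrains JNK signalling, went from 161, 161 and 148 to 429, 441 and 412 CPM (1.45 ± 0.032, adjusted p = 7.14e-32). BIRC3, the ubiquitin ligase cIAP2, went from 2.34, 2.1 and 2.37 to 7.09, 5.48 and 6.94 CPM (1.50 ± 0.16), and TRAF1, its adaptor, from 2.13, 2.59 and 2.59 to 4.12, 4.64 and 5.52 (0.96 ± 0.15). CFLAR, which encodes the caspase inhibitor FLIP, rose from 27.9, 30 and 27.7 to 47.9, 52.6 and 49.6 CPM (0.81 ± 0.062), and the early response gene IER3 from 50.5, 54.1 and 54.6 to 81.6, 89.4 and 85.4 (0.69 ± 0.045). CFLAR did not differ detectably between the p65 forms (-0.14 ± 0.058, adjusted p = 0.0546), whereas TRAF1 was far lower with p65 2CS (-2.89 ± 0.10).

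Of 23 tested genes of TNF receptor and IKK signalling 6 rose (26.1%, against 12.1% over all genes) and 1 fell (4.35%, against 11.4%), or 2 fell without p65 2CS replicate 9. The rises were led by IKBKE, the IKK-related kinase IKK epsilon (0.99 ± 0.14), MAP3K8, the kinase TPL-2 that links NF-kB to ERK (0.92 ± 0.078), and RIPK2, the kinase of the NOD receptors (0.65 ± 0.071). RIPK2 was read at 18.4, 20.8 and 18.5 CPM with vector, 30.1, 30.5 and 30 with p65 2CS and 28.9, 27 and 30.3 with p65 WT, and did not differ detectably between the forms (0.072 ± 0.069, adjusted p = 0.476). The rises were below 2-fold, and the list median was 0.074.

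Transcription factors of the interferon and cytokine pathways rose in 7 of 24 (29.2%, against 12.1% over all genes). None fell (against 11.4%), and the median log2 fold was 0.28. IRF8 had too few vector reads for the filter and was tested through the p65 libraries. STAT5A, which carries signals from cytokine receptors, went from 2.24, 2.1 and 1.49 to 17.5, 18.8 and 16.5 CPM (3.18 ± 0.12, adjusted p = 1.86e-23), against 152, 136 and 153 with p65 WT. IRF1, which activates interferon and antigen presentation genes, went from 15.6, 15 and 13.1 to 30.7, 30.5 and 31.1 CPM (1.08 ± 0.071), and IRF8, best known from myeloid cells, from 0.373, 0.391 and 0.166 to 0.755, 1.79 and 1.1 (1.98 ± 0.40). IRF2 rose by 0.86 ± 0.15 to 8.02, 6.35 and 7.37 CPM, and its p65 WT libraries stood at 7.24, 6.2 and 7.65 (0.033 ± 0.14 between the forms, adjusted p = 0.895). SOCS2, a feedback inhibitor of cytokine signalling, rose by 0.89 ± 0.13.

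Interferon response genes rose in 7 and fell in 1 of 31 (22.6% and 3.23%, against 12.1% and 11.4% over all genes). The fall was lost without vector replicate 1 and joined by another without p65 2CS replicate 9. IFIT2 went from 0.32, 0.293 and 0.11 to 1.34, 1.03 and 1.0 CPM (2.16 ± 0.46) and IFIT1 from 2.24, 1.86 and 1.71 to 3.49, 3.37 and 4.73 (0.99 ± 0.20), both encoding proteins that block viral RNA. The RNA sensors DDX58 (RIG-I) and IFIH1 rose by 1.12 ± 0.12 and 0.91 ± 0.13. DDX58 was higher with p65 2CS at 15.1, 12.9 and 13.3 CPM than with vector at 5.49, 6.5 and 6.95 or p65 WT at 9.51, 8.16 and 8.64 (0.64 ± 0.12 between the forms, adjusted p = 2.15e-05). IFIT1 and IFIT2 overlap LIPA on the opposite strand, which had a log2 fold of -0.13.

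Antigen presentation genes rose in 4 of 19 (21.1%, against 12.1% over all genes) and fell in 2 (10.5%, near the 11.4% of all genes). With p65 WT and the same vector libraries there were 13 rises and no fall, where 16.4% of all genes rose and 12.5% fell. The falls with p65 2CS numbered 1 without any 1 of the vector libraries and 0 without p65 2CS replicate 8. TAP1, which pumps peptides into the endoplasmic reticulum, went from 27.4, 25.4 and 27.6 to 42.4, 50 and 46.8 CPM (0.80 ± 0.063), and TAPBP, which holds class I molecules next to it, rose by 0.59 ± 0.046. PSMB9, an immunoproteasome subunit whose gene overlaps TAP1 on the opposite strand, rose by 1.24 ± 0.35 to no more than 1.45 CPM. All 13 of the 19 that differed between the p65 forms were lower with p65 2CS, where 17.9% of all genes were lower and 13.4% higher.

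Several further lists held rises, at shares above the 12.1% of all tested genes, but on few genes each. In prostaglandin synthesis 2 of 10 rose (20%) and 1 fell (10%). The rises were PTGES, the enzyme that makes prostaglandin E, from 3.41, 3.27 and 3.37 to 23.9, 24.8 and 21.4 CPM (2.81 ± 0.11, adjusted p = 3.91e-23), and PLA2G4C, a phospholipase that frees fatty acids, from 2.13, 3.57 and 2.54 to 10.5, 9.92 and 8.89 (1.82 ± 0.17). Complement, acute phase and coagulation genes rose in 3 and fell in 3 of 14 (21.4% each, against 11.4% falls over all genes). Extracellular protease and matrix genes rose in 5 (22.7%) and fell in 3 (13.6%) of 22, and mRNA decay factors rose in 4 of 11 (36.4%). The call of C3 was lost without vector replicate 1, p65 2CS replicate 8 or p65 2CS replicate 9. That of ADAMTS9, a matrix gene, was lost without vector replicate 1, vector replicate 3 or p65 2CS replicate 8. Among the rises of these lists TNFAIP6, a matrix-binding protein first found as TNF-induced, had no read with vector and, with p65 2CS, 2.67, 2.78 and 2.42 CPM, at least 50.4-fold more. PTX3, a soluble pattern receptor, rose by 1.20 ± 0.18, C1S, a protease of the classical pathway, by 1.02 ± 0.16, LAMB3, a laminin chain, by 1.22 ± 0.099, and ZFP36, which destroys inflammatory mRNAs, by 1.00 ± 0.11. SOD2, the mitochondrial superoxide dismutase and a familiar NF-kB target, named after its values were seen, was not called, at 64.7, 60.1 and 60.4 and 64.5, 63.5 and 66.4 CPM (0.069 ± 0.046, adjusted p = 0.307). Of 3 tested apolipoprotein L genes 1 rose, or 2 without vector replicate 3, against 3 with p65 WT, and of 3 tested DNA sensing genes 1 rose, or 0 without vector replicate 1, vector replicate 2, p65 2CS replicate 7 or p65 2CS replicate 8.

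**Figure D3:**
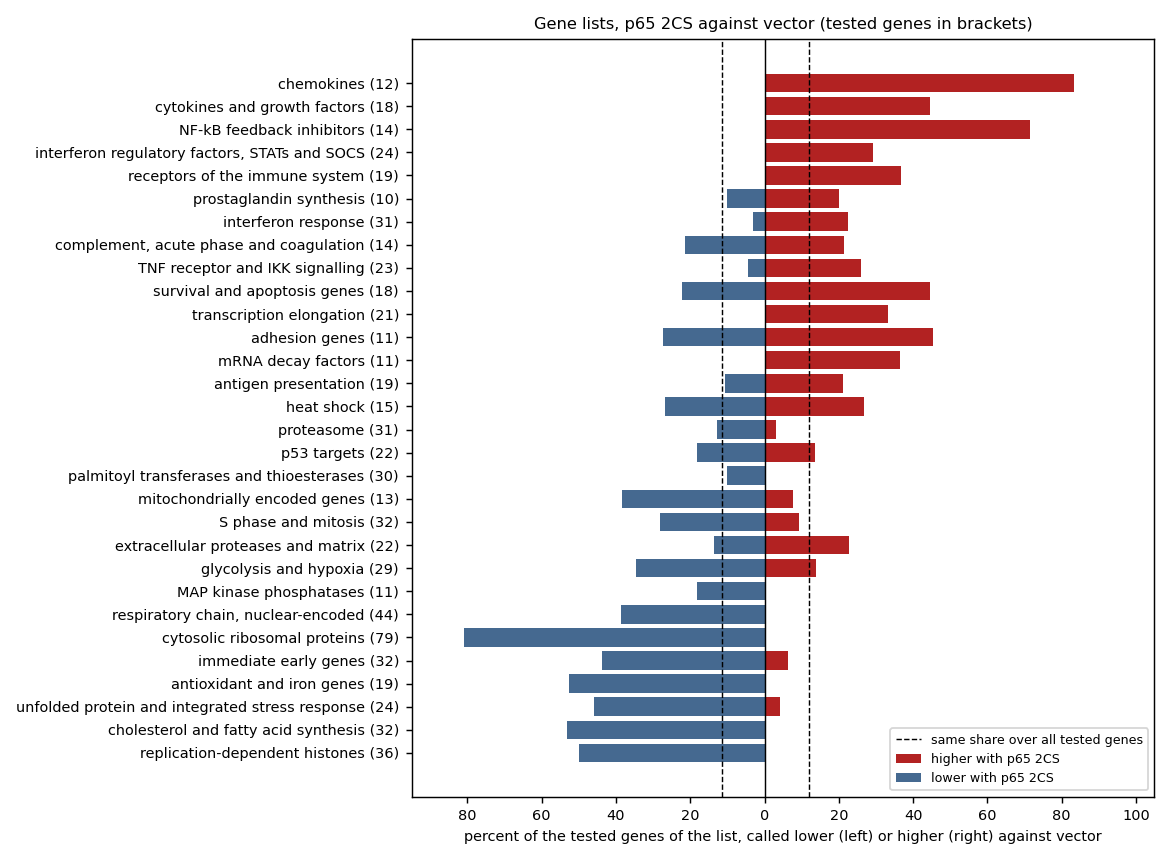
Percent of the tested genes of each list called higher (right) or lower (left) with p65 2CS than with vector, for lists of at least 10 tested genes, whose number is in brackets. Dashed lines give the share over all tested genes, 12.1% higher and 11.4% lower. Chemokines (10 of 12) and feedback inhibitors (10 of 14) extend far to the right, and ribosomal protein genes (64 of 79) far to the left.

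Some of the largest rises lay outside the lists. The genes named here had too few vector reads for the filter and were tested through the p65 libraries. They were thus selected in part by their rise. AVPR1A, the vasopressin receptor of smooth muscle and brain, was read at 0.373, 0.684 and 0.662 CPM with vector and 61, 66.6 and 58.7 with p65 2CS (6.74 ± 0.12, adjusted p = 9.07e-35), and at 99.2, 90.8 and 104 with p65 WT. ZAN, zonadhesin of the sperm head, had 2 reads over the vector libraries and 15.7, 12.7 and 11.3 CPM with p65 2CS, a ratio of 376 (95% counting interval 104 to 3110). SLC52A3, a riboflavin transporter, had 1 read and 3.25, 3.37 and 2.79 CPM, a ratio of 181 (32.1 to 7190). NRAP, a protein of striated muscle, went from 0, 0.147 and 0.11 to 3.6, 4.8 and 2.47 CPM (5.29 ± 0.41, or 5.92 without vector replicate 2). AVPR1A reached a larger part of its p65 WT level than the others, with a log2 fold between the forms of -0.66 ± 0.054, against -1.73 ± 0.097 for ZAN and -2.73 ± 0.14 for SLC52A3, though these differences among genes were not themselves tested.

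Genes that are not protein-coding were among the 387 too, and those named here were likewise tested through the p65 libraries. AC083837.1 and LINC02538, both long noncoding RNAs, had no read with vector. With p65 2CS the first was read at 3.2, 3.29 and 2.95 CPM, at least 60.4-fold higher, and the second at 2.67, 3.25 and 2.58, at least 55.1-fold higher. AC135584.1 had 1 read with vector and 3.37, 2.38 and 2.0 CPM with p65 2CS, a ratio of 146 (25.8 to 5790), and BX255923.2 went from 0.693, 0.44 and 0.331 to 11.6, 12.5 and 11.9 CPM (4.61 ± 0.20). MIR4635, at 0.32, 0.489 and 0.497 CPM with vector and 2.85, 3.13 and 2.89 with p65 2CS, lies inside SLC12A7 on the same strand, and its reads cannot be told apart from those of that gene.

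Of the protein-coding genes at least 2-fold higher with p65 2CS than with vector and at 5 CPM or more, the 6 with the smallest log2 fold between the p65 forms are described next. Genes with smaller rises, such as REL, NFKBIB, RIPK2 and IRF2 above, had log2 folds between the forms nearer to 0 than 5 of these 6. SLC12A7 (chr5:1050376-1112035) was read at 110.2, 105 and 109.8 CPM with vector, 752, 766 and 717 with p65 2CS and 713, 713 and 751 with p65 WT. Its log2 fold was 2.79 ± 0.032 against vector (adjusted p = 6.45e-43) and 0.038 ± 0.027 against p65 WT (adjusted p = 0.308). The vector libraries stood apart from both p65 groups, which overlapped. NOCT, nocturnin, a rhythmic phosphatase, went from 21.8, 18.2 and 17.4 to 42.4, 37.1 and 39.5 CPM, with p65 WT at 35.3, 34.5 and 37.3 (0.15 ± 0.069 between the forms, adjusted p = 0.108). RFX2, a factor of ciliated cells, went from 9.48, 9.04 and 9.49 to 22.4, 19.7 and 20.2 CPM with p65 WT at 21.3, 23.5 and 22.3 (-0.11 ± 0.079, adjusted p = 0.321), and EFNA1, a membrane-bound ephrin ligand, from 4.05, 5.67 and 7.89 to 13.4, 13.9 and 14.8 with p65 WT at 14, 12.4 and 12.5 (0.11 ± 0.12, adjusted p = 0.54). The others were TNFRSF9, given above, and CNKSR1, a scaffold of RAS signalling, at 2.08, 3.32 and 3.2 CPM with vector, 7.49, 5.56 and 6.16 with p65 2CS and 7.24, 7.02 and 6.79 with p65 WT. These 6 genes were chosen by the difference between the forms, so that their likeness is a description and not a test, and the p65 2CS cells held more RELA transcript when they reached it.

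Other genes were higher with p65 2CS than with either vector or p65 WT. PGK1 (chrX:77910739-78129296), a glycolytic enzyme, was read at 539.5, 545 and 531 CPM with vector, 1743, 1792 and 1665 with p65 2CS and 831, 784 and 903 with p65 WT. The log2 fold was 1.69 ± 0.032 against vector (adjusted p = 1.43e-34) and 1.05 ± 0.031 against p65 WT (adjusted p = 9.47e-28), and the 3 groups did not overlap. The annotated gene overlaps ATP7A on the same strand, which had a log2 fold of 0.034, and counts per gene do not show which part of PGK1 its reads cover. Of 29 tested glycolysis and hypoxia genes 4 rose, PGK1 by the most, a share of 13.8% near the 12.1% of all genes. In the same list 10 fell (34.5%, against 11.4% of all genes). The rises numbered 2 without vector replicate 2, vector replicate 3 or p65 2CS replicate 7. GADD45B at 316, 304 and 311 CPM and JUNB at 86.4, 95.6 and 91.4 CPM with p65 WT were both below p65 2CS (0.46 ± 0.031 and 0.24 ± 0.045 between the forms), where JUNB, an AP-1 subunit, stood at 105, 109 and 108 CPM against 45.9, 53.9 and 49.8 with vector. SLFN5, an interferon-related gene named after its values were seen, was read at 12, 13.4 and 15 CPM with vector, 32.4, 33.8 and 30.2 with p65 2CS and 18.2, 18.5 and 17.3 with p65 WT (1.26 ± 0.080 against vector, 0.84 ± 0.079 against p65 WT). BRD2, a reader of acetylated histones, went from 883, 856 and 870.1 to 1138, 1123 and 1111 CPM (0.37 ± 0.023) with p65 WT at 831, 823 and 821, and HEXIM1, an inhibitor of the elongation kinase P-TEFb, from 107, 106 and 109.7 to 125, 127 and 135 (0.26 ± 0.038) with p65 WT at 99.3, 104 and 108. They belong to a list of 21 transcription elongation genes, of which 7 rose with p65 2CS (33.3%, against 12.1% over all genes), BRD2 by the most. None fell (against 11.4%), and the list median was only 0.049. Against p65 WT, 8 were higher and 2 lower with p65 2CS, where 13.4% of all genes were higher and 17.9% lower.

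Further genes highest with p65 2CS were read at lower levels. FOXD4L1, a forkhead factor, went from 0.16, 0.831 and 0.607 to 3.72, 3.81 and 3.05 CPM with p65 WT at 0.441, 0.316 and 0.247 (2.70 ± 0.32 against vector, adjusted p = 1.67e-08, and 3.38 ± 0.36 against p65 WT, adjusted p = 6.17e-10), and it has close family copies that could share its reads. SOX30, a factor of sperm development, went from 0.799, 0.733 and 0.386 to 2.15, 2.58 and 1.84 CPM, with p65 WT at 0.378, 0.886 and 0.741. RAX, a homeobox factor of the eye field, went from 1.55, 1.86 and 1.16 to 3.49, 3.97 and 3.37 CPM, with p65 WT at 1.57, 1.45 and 1.98. NPR3, the clearance receptor of natriuretic peptides, DMGDH, a mitochondrial dehydrogenase, and UNC5CL, a death-domain protein, rose by 1.32 ± 0.29, 1.22 ± 0.28 and 1.03 ± 0.20 against vector. EIF3CL, a near-identical copy of EIF3C, is uncertain, since its p65 2CS libraries read 8.66, 7.14 and 36.5 CPM and the log2 fold of 1.70 ± 0.31 fell to 0.56 without p65 2CS replicate 9.

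A few genes moved in opposite directions with the p65 forms, each compared with the same vector libraries. SAMD5 was read at 25, 28.1 and 24.3 CPM with vector, 18, 20 and 18.7 with p65 2CS and 37.7, 37.6 and 37 with p65 WT (-0.45 ± 0.073 with p65 2CS against vector, -0.98 ± 0.071 between the forms, adjusted p = 8.45e-15). KCNA1, a voltage-gated potassium channel, was read at 5.06, 5.23 and 6.57 CPM with vector, 2.9, 3.25 and 2.84 with p65 2CS and 8.31, 7.97 and 9.81 with p65 WT (-0.89 ± 0.16 and -1.53 ± 0.16). GDF15, a stress-induced cytokine, was read at 4.26, 3.18 and 4.36 CPM with vector, 2.56, 2.86 and 1.95 with p65 2CS and 5.54, 5.57 and 6.73 with p65 WT, but its fall with p65 2CS (-0.66 ± 0.20) was lost without vector replicate 1, vector replicate 3 or p65 2CS replicate 9 (adjusted p up to 0.0681). In the other direction ZNF391, a zinc finger gene, and RBM20, a splicing factor of heart muscle, rose with p65 2CS (0.35 ± 0.091 and 0.29 ± 0.068) and fell with p65 WT (-0.31 ± 0.10 and -0.35 ± 0.074).

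**Figure D4:**
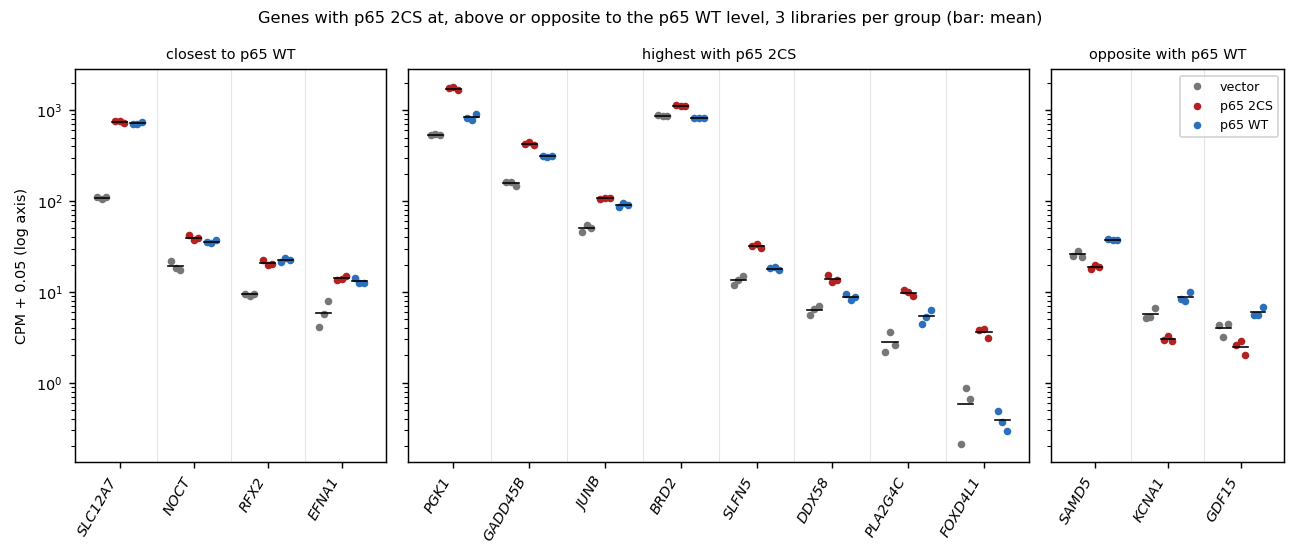
CPM plus 0.05 on a log axis of genes with p65 2CS at the p65 WT level, above it or moving against it, with a dot for each of the 3 libraries per group and a bar at their mean. The p65 2CS and p65 WT libraries of SLC12A7 overlap, the p65 2CS libraries of PGK1 lie highest, and those of SAMD5, KCNA1 and GDF15 lie below vector while p65 WT lies above it.

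Falls with p65 2CS were many but small. The largest by list were those of the replication-dependent histone genes, whose transcripts mostly end without a poly-A tail. Of these 18 of 36 tested fell (50%, against 11.4% over all genes) and none rose, with a median log2 fold of -0.51. HIST1H2AC went from 26.3, 23 and 25.8 to 12.4, 11.6 and 12.3 CPM (-1.05 ± 0.085, adjusted p = 7.21e-13) and HIST1H4H from 20.7, 20.3 and 17.4 to 10.7, 9.25 and 7.15 (-1.11 ± 0.11, adjusted p = 2.77e-10). The libraries of neither gene overlapped between the groups. HIST1H2BG, HIST1H2BE, HIST1H4E and HIST1H1E fell by more than 2-fold as well, from levels of a few CPM (-1.41 ± 0.20, -1.36 ± 0.29, -1.29 ± 0.28 and -1.09 ± 0.26). With p65 WT the median was -0.63, with 18 falls against the same vector libraries, and between the forms 6 histone genes were higher and 5 lower with p65 2CS. Libraries were made from poly-A RNA, and these genes have near-identical copies, so that their counts are uncertain. Among 32 genes of S phase and mitosis, 9 fell and 3 rose (28.1% and 9.38%, against 11.4% and 12.1% over all genes), with a median of -0.052. Histone genes are transcribed in S phase.

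Immediate early genes, which growth factors and stress switch on within minutes, fell in 14 and rose in 2 of 32. These are shares of 43.8% and 6.25%, against 11.4% and 12.1% over all genes. EGR1 went from 84, 85 and 89.6 to 56.7, 55.8 and 60.2 CPM (-0.58 ± 0.049, adjusted p = 1.68e-12), JUN from 1313, 1328 and 1273 to 922, 908 and 929 (-0.50 ± 0.024, adjusted p = 2.61e-20) and ARC from 34, 38 and 40.3 to 24.9, 25.8 and 29.3 (-0.49 ± 0.069, adjusted p = 6.45e-07). JUNB and MAFF were the rises, by 1.10 ± 0.048 and 0.52 ± 0.077. DUSP1, which switches MAP kinases off and is itself an early gene, fell by 0.36 ± 0.028 on the log2 scale.

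Genes of the unfolded protein and integrated stress response fell in 11 and rose in 1 of 24 (45.8% and 4.17%, against 11.4% and 12.1% over all genes). With p65 WT, 12 fell and 5 rose against the same vector libraries (12.5% and 16.4% of all genes). The list median was -0.146 with p65 2CS and -0.13 with p65 WT. The values that follow are those of vector and p65 2CS. TRIB3, a pseudokinase induced by amino acid shortage, went from 30.8, 32 and 33.2 to 19.9, 20 and 18.6 CPM (-0.71 ± 0.074), and CEBPB, a factor of stress and inflammation, from 50.6, 50.9 and 48.3 to 32.6, 28.6 and 31.2 (-0.70 ± 0.062). PPP1R15A (GADD34), which restores translation, rose by 0.62 ± 0.037. Cholesterol and fatty acid synthesis genes fell in 17 of 32 (53.1%, against 11.4% over all genes) and rose in none. INSIG1, which holds back the sterol-sensing machinery, fell by the most (-0.40 ± 0.047), and the list median was -0.15, against -0.014 with p65 WT. Antioxidant and iron genes fell in 10 of 19 (52.6%, against 11.4% over all genes) and rose in none. SLC7A11, the cystine importer, led, from 27.5, 27.9 and 26.4 to 17.4, 17.7 and 20.1 CPM (-0.57 ± 0.080). Between the p65 forms, 13.4% of all genes were higher and 17.9% lower with p65 2CS. Of the stress response genes 8 were higher and 8 lower, of the cholesterol genes 2 and 18, and of the antioxidant genes 1 and 8. The 1 was SLC7A11 (0.48 ± 0.090), which was lower still with p65 WT.

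Cytosolic ribosomal protein genes fell in 64 of 79 (81%, against 11.4% over all genes) and rose in none, by a median log2 fold of -0.12. RPS21 (-0.29 ± 0.034), RPL39 (-0.28 ± 0.027) and RPL26 (-0.25 ± 0.061) led. Nuclear genes of the respiratory chain fell in 17 of 44 (38.6%) and rose in none (median -0.104), led by ATP5ME (-0.50 ± 0.12) and NDUFS5 (-0.30 ± 0.040). Of 13 mitochondrially encoded genes 5 fell (38.5%), MT-ND3 by the most (-0.29 ± 0.035). In this list 1 rose (7.69%), a call that was lost without vector replicate 1 or p65 2CS replicate 9. Over all genes 11.4% fell and 12.1% rose. With p65 WT the ribosomal protein list had a median of 0.016 against the same vector libraries. Of its 79 genes 70 were lower with p65 2CS than with p65 WT, against 17.9% of all genes. Gene length moved with these small falls. Among genes with a mean of at least 50 CPM, the shortest of 4 equal bins by length had a median log2 fold of -0.06 with 435 falls and 110 rises, and the longest bin 0.018 with 219 falls and 312 rises. The median length was 3109 bases for the ribosomal protein genes and 2269 bases for the respiratory chain genes, within the shortest bin of 156 to 3837 bases, and the part of length in these falls was not tested.

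**Figure D5:**
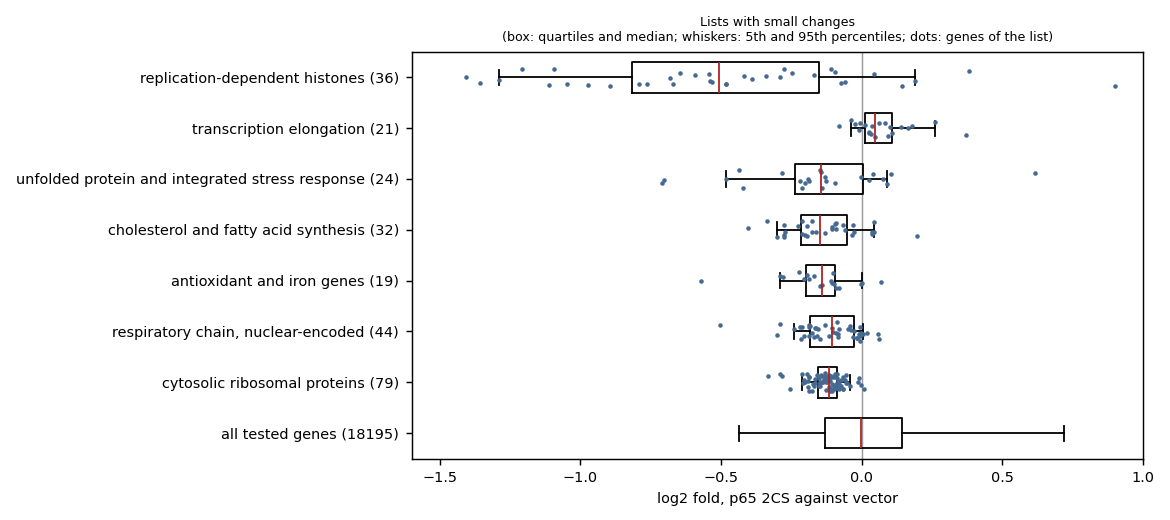
Log2 fold of p65 2CS against vector for all 18195 tested genes and for 7 lists, as boxes of quartiles and median with a dot for each gene of a list. Ribosomal protein genes cluster just below 0 with a median of -0.117, while histone genes reach past -1.

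Falls past 2-fold, 41 in number, had a median level of 1.49 CPM with vector and 0.677 with p65 2CS, and 19 were protein-coding. The 3 that passed 4-fold, named after their values were seen, were BOLA2B, SERF1A and PRODH. BOLA2B and SERF1A are members of near-identical gene pairs and rested on 1 library. BOLA2B was read at 0.959, 0.44 and 30.2 CPM with vector and 0.581, 0.635 and 0.579 with p65 2CS, and SERF1A at 0.266, 0.342 and 32.6 and then 0.697, 0.913 and 0.421. Without vector replicate 3 their log2 folds of -4.09 and -3.96 became -0.20 and 1.16, and neither was called. PRODH, proline dehydrogenase, was read at 1.33, 2.05 and 2.21 CPM with vector and 0.116, 0.119 and 0.316 with p65 2CS (-3.33 ± 0.59, adjusted p = 3.53e-05), with p65 WT at 1.07, 0.127 and 3.33 spanning both groups. U2AF1L5 and GPR89B, copies of other genes, were uneven as well, U2AF1L5 at 13.8, 27.2 and 62.7 with vector and 13.5, 11.2 and 11.7 with p65 2CS, where the log2 fold of -1.52 ± 0.24 was -0.78 without vector replicate 3. GPR89B went from 11.1, 36.6 and 21.8 to 9.3, 8.81 and 9.89 CPM, and its log2 fold of -1.33 ± 0.22 was -0.82 without vector replicate 2. Among genes that are not protein-coding, AL359504.2 (-1.11 ± 0.20) and AC008764.6 (-1.06 ± 0.23) fell from levels of a few CPM. Enzymes of palmitoylation and its reversal, the palmitoyl transferases and thioesterases, showed no rise and 3 falls among 30 tested (10%), a share near the 11.4% of all genes, the largest that of ZDHHC12 (-0.26 ± 0.066). The proteasome list had 1 rise and 4 falls among 31 (3.23% and 12.9%) and the p53 list 3 and 4 among 22 (13.6% and 18.2%), against 12.1% and 11.4% over all genes. The heat shock list had 4 rises and 4 falls among 15 (26.7% each). The heat shock falls numbered 2 without vector replicate 3 and 1 without p65 2CS replicate 8, its rises 2 without vector replicate 2, and the p53 falls 2 without vector replicate 2 or p65 2CS replicate 9.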

How the data were processed

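RNA of 9 libraries of HEK293A cells was analysed, 3 for each plasmid, starting from the gene counts that the authors deposited, which are whole reads per gene without normalization. Per the labels' protocols, poly-A selected RNA was primed with random oligonucleotides, and the aligner was HISAT2 2.0.5, per the submitters' processing notes. How reads were counted, whether by strand and on which build is not given in the sources used, so that reads of overlapping genes cannot be told apart. Identifiers and positions of all 58735 genes matched GENCODE release 29 (GRCh38).

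Tests used edgeR 4.0.16 in R 4.3.3, with limma 3.58.1. edgeR's expression filter left 18195 genes, with 40540 not tested. After TMM scaling, a quasi-likelihood F test was taken from 1 fit of the 9 libraries, with a mean for each group. P-values were adjusted by Benjamini-Hochberg across every tested gene, with a threshold of 0.05, and the standard error of a log2 fold is the one that the F statistic implies. CPM is computed here from the deposited counts and the TMM-scaled library totals. The procedure was tested on simulated data. Where a group had no read, 3 counts over the group were taken as the floor, which is 0.0523 CPM for vector and 0.0488 CPM for p65 2CS. Floors and intervals reflect counting error alone, because PCR copies are not independent molecules. All pairs of libraries within a group differed beyond sampling noise (chi-square per degree of freedom 1.91 to 2.64).

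The comparison, the gene lists and the rules were chosen with earlier results of these data known, and no list was tested. Genes named were the largest called changes of each list with a mean of at least 1 CPM (up to 5, or 3 for short lists), all NF-kB subunits and inhibitors, the 12 largest protein-coding rises and falls without overlap, the genes with p65 2CS highest (8), lowest (6) or closest to p65 WT (6), those moving in opposite directions, and the 6 largest noncoding rises and 3 falls. Others are marked as named after their values were seen. Some genes that these rules name are not reported here. Upstream sequences came from RefSeq (GRCh38.p14). Alternatives were other scalings, filters, a DESeq2 1.42.0 Wald test, a fit of 6 libraries and leaving out each library.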

Additional observations from a re-analysis of the deposited data

How the results depend on the processing

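No paired analysis was possible because the replicate numbers in the labels (1 to 3, 4 to 6 and 7 to 9) are not shared between groups. The genes lower at least 2-fold numbered 41, and 25 with the DESeq2 Wald test, the only count over all genes that moved by more than 1.5 times under the alternatives run. Leaving out 1 library at a time gave 1673 to 1973 genes higher and 1558 to 1921 lower with p65 2CS than with vector, 351 to 392 higher and 34 to 52 lower at least 2-fold, and 1888 to 2239 higher and 2883 to 3117 lower than with p65 WT. The median log2 fold of all genes moved to -0.017 with library totals alone and to 0.007 with DESeq2 size factors. With library totals alone 3115 genes were higher and 2815 lower with p65 2CS than with p65 WT. Of 962 list counts recomputed under an alternative, 50 moved by more than 1.5 times, all of them counts of 5 or fewer, and the cause was not tested. The immediate early genes had 4 rises in place of 2 with DESeq2 size factors and with the 6 libraries alone, and the mitochondrially encoded genes 3 falls in place of 5 with the DESeq2 Wald test. Of 2724 recomputed log2 folds of named genes, 2637 kept their direction and their side of the threshold and 86 lost the call. Leaving out 1 library at a time moved SERF1A from -3.96 to between -4.54 and 1.16, the last, a change of sign, without vector replicate 3. Calls lost in at least 5 of the alternatives were those of MX1, ASNS, EMX2, NES and RFX3. With 3 libraries a group and most large rises starting under 1 CPM, the size of a rise is limited by the few vector reads.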
